A study of Mus musculus with 25 samples.

Results

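The comparison described here is that of spinal cord cholinergic neurons lacking *Bmal1* with control cholinergic neurons at ZT8, 8 h after lights-on, and it took in 12 of the 25 libraries of the series. The 6 control mice were *ChAT-Cre;RiboTag fx/+*, and the 6 *ChAT-BKO* mice were *ChAT-Cre;RiboTag fx/+;Bmal1 fx/fx*, so that both groups carried the Cre driver and the tagged ribosome and the floxed alleles of *Bmal1* were present in *ChAT-BKO* mice alone. All were male C57BL/6J mice of about 6 mo of age kept in a 12:12-h light/dark cycle, and each library came from the spinal cord of a separate mouse. The RiboTag allele adds an HA epitope to a ribosomal protein wherever Cre is active, and pulling down HA therefore isolates the mRNA that was bound to ribosomes of cells with *ChAT-Cre* activity, that is, motor neurons together with the cholinergic interneurons and autonomic neurons of the cord. Of 50559 genes listed, the 21738 with at least 10 counts summed over the 24 immunoprecipitates (12 at ZT8 and 12 at ZT20) were tested. Libraries at ZT8 held from 6.78 to 18.6 M counts in controls and from 4.04 to 17.4 M in *ChAT-BKO* mice, and 0 counts leave room for up to 0.161 CPM in the deepest of them and 0.743 CPM in the shallowest, counting error being the one error covered. Any 2 mice of a group (30 pairs) differed by more than counting error, their chi-square being 1.86 to 27.6 times its degrees of freedom. Levels are normalized read counts scaled to library size (CPM, counts per 1 M) with the SD over 6 libraries, fold changes are *ChAT-BKO* relative to control on the log2 scale, and a gene is called when edgeR's quasi-likelihood test with Benjamini-Hochberg adjustment over all 21738 genes gave an adjusted p under 0.05. In total 40 genes were called (0.184%), 28 higher in *ChAT-BKO* neurons (0.129%) and 12 lower (0.0552%), and 7 of the 28 and 7 of the 12 had a fold over 2.

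In the circadian clock of mammals, BMAL1 pairs with CLOCK or NPAS2, binds E-boxes in promoters and activates genes that include those of the PER and CRY proteins, which accumulate and repress BMAL1-CLOCK. Another loop is formed by the nuclear receptors REV-ERBα and REV-ERBβ (*Nr1d1* and *Nr1d2*), repressors that BMAL1-CLOCK activates, and the ROR receptors, activators that compete with them for the same response elements. A further set of outputs runs through D-boxes, which are bound by the PAR bZIP activators DBP, TEF and HLF and by the repressor NFIL3. Around ZT8 the wild-type clock of many tissues is in the phase in which transcripts driven by E-boxes such as *Nr1d1* and *Dbp* are high and *Bmal1* is low.

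Promoter sequence was taken from RefSeq windows (GRCm38.p6) of up to 250 bases before each annotated start. 4 of these windows are shown because the members they belong to carry the E-box CACGTG or the E-prime box CACGTT and were called, 2 of them lower in *ChAT-BKO* neurons and 2 of them higher. They are read 5′ to 3′ on the strand of the gene, capitals mark the 2 motifs (the E-prime box appears as AACGTG where it lies on the opposite strand), and each ends before the earliest annotated transcript of the gene.
Ciart (chr3:95882252-95882478, minus strand): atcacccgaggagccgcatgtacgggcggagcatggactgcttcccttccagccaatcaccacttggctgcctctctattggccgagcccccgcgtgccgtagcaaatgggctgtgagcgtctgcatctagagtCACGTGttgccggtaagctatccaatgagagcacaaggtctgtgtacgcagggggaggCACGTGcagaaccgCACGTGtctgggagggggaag
Nr1d1 (chr11:98775378-98775627, minus strand): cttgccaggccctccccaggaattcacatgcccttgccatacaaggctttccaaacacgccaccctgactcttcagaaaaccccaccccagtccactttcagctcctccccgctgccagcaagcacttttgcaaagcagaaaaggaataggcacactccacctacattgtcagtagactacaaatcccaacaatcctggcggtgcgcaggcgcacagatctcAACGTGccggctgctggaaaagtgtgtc
Cry1 (chr10:85185065-85185304, minus strand): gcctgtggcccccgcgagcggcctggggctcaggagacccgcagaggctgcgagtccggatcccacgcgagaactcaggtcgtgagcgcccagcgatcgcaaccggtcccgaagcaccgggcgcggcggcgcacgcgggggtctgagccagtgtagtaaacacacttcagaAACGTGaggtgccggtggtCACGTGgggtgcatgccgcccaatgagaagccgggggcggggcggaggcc
Eif5a2 (chr3:28781027-28781275, plus strand): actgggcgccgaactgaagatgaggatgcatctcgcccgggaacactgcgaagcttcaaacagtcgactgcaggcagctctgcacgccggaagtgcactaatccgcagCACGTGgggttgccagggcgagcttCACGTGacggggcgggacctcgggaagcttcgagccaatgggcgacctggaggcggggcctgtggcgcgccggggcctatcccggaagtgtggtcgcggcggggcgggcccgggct

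Of the 40 genes called at ZT8, 28 had such a window, and of these 28 the E-box lay in 3 (10.7%), against 6.86% of the 27025 genes with a window, and the E-prime box in 4 (14.3%), against 4.50%, a gene with both counting under each. *Ciart* held 3 E-boxes, the nearest 44 bases before the RefSeq start, and *Cry1* held an E-box 60 bases and an E-prime box 79 bases before its start. The E-prime box of *Nr1d1* lay 28 bases before the start, and the E-boxes of *Eif5a2* lay 117 and 142 bases before it. E-prime boxes were also found before *Cry2* and *Ppib*. The D-box TTATGTAA lay in 0 of the 28 windows (0.977% of all genes with a window) and the ROR/REV-ERB response element TAGGTCA in 1 of them (2.55% of all genes), that of *Nfil3*. Among clock genes that were not called, *Per1*, *Bhlhe41* and *Tef* held an E-box, *Rorb* an E-prime box and *Per3* the D-box, while *Bhlhe40*, *Csnk1d* and *Btrc* had no window. Among the called genes with no window were *Per2*, *Cd24a*, *Fut2*, *Colq*, *Abhd1*, *Lrrc32*, *Rspo3* and the 4 called pseudogenes. Both strands were searched, no site can match more than 1 of the motifs, and a match is a description of the letters in these windows.

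The targeted gene, *Bmal1*, is listed as *Arntl* (chr7:113207465-113314126, GRCm38, as are all positions here). Its level ran from 6.15 to 10.0 CPM in the controls (median 8.55) and from 1.98 to 3.27 CPM in the *ChAT-BKO* libraries (median 2.60), and the groups did not overlap. This was a log2 fold change of -1.64 (SE 0.16, edgeR adjusted p = 1.56e-05), and whichever library was left out the value stayed between -1.73 and -1.56. The counts are per gene, so transcripts without the deleted exon still count toward *Arntl*, and counts from cells that are not cholinergic cannot be told apart from them. As in any bulk sample, fewer cells with a transcript and less of it per cell cannot be told apart either.

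Clock genes were prominent among the called genes. Of 28 members of 6 lists of clock genes, 9 were called against 0.184% of all genes tested, and in each of these 9 the 6 *ChAT-BKO* libraries lay on one side of the 6 control libraries, which held for 0.584% of all genes tested in either direction. Besides *Arntl* itself, 5 of the 9 were higher and 3 were lower in *ChAT-BKO* neurons. These lists were chosen with earlier results of these data known.

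**Figure D1:**
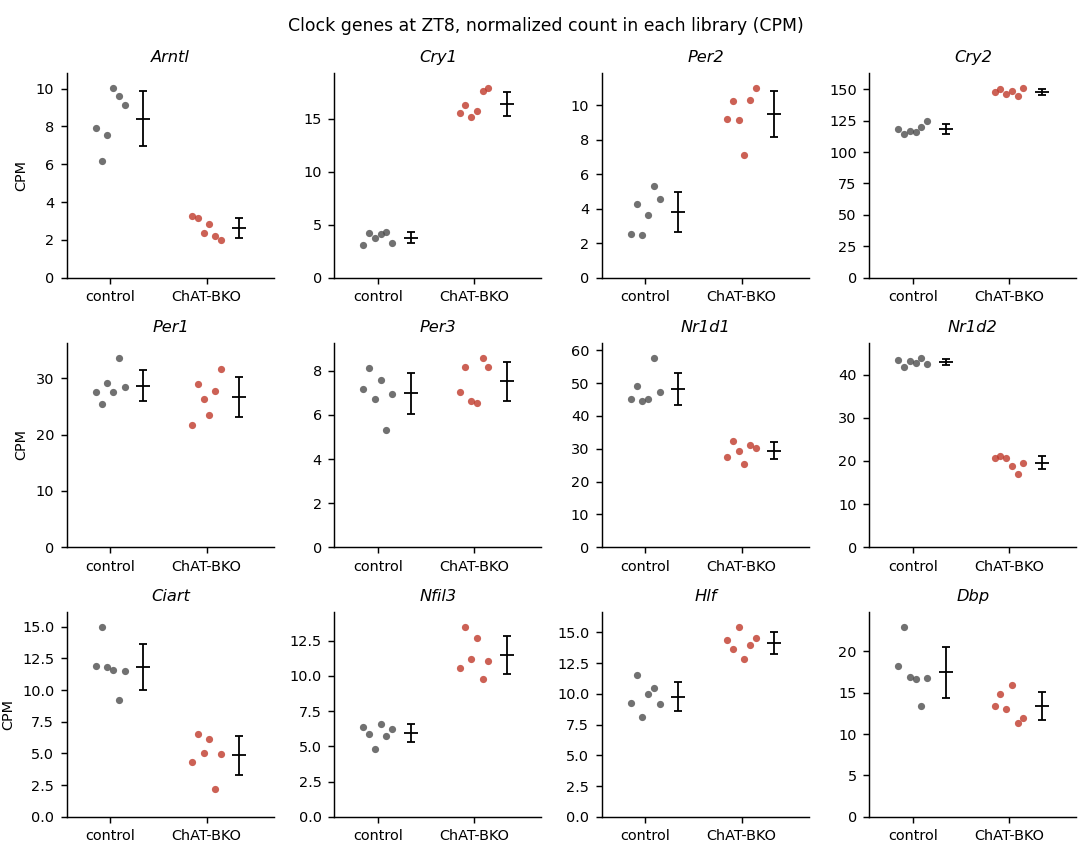
Normalized counts (CPM, vertical axis, from 0) of 12 clock genes in each of the 6 control (grey) and 6 *ChAT-BKO* (red) libraries at ZT8, with the mean and SD beside the points. In 9 panels the groups are apart, while *Per1*, *Per3* and *Dbp* overlap.

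Among the activators, *Clock*, the partner of BMAL1, had a log2 fold change of 0.21 (SE 0.11), *Npas2*, which can take the place of CLOCK, 0.61 (SE 0.30), and *Arntl2*, the paralog of *Bmal1*, 0.004 (SE 0.19), and these were not called (edgeR adjusted p = 1 for each). *Npas2* was low, at 1.11 ± 0.518 CPM in control libraries against 1.57 ± 0.477 CPM in *ChAT-BKO* libraries, and had the widest SE of these genes.

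Of the 5 period and cryptochrome genes, 3 were called and all 3 were higher. *Cry1* ran from 3.07 to 4.31 CPM in the controls (median 3.93) and from 15.1 to 17.9 CPM in the *ChAT-BKO* libraries (median 16.0), a log2 fold change of 2.09 (SE 0.10, edgeR adjusted p = 1.43e-09). Its level was thus 4.25 times that of controls, and the highest control library was below the lowest *ChAT-BKO* library. *Per2* ran from 2.48 to 5.32 CPM in the controls (median 3.95) and from 7.13 to 11.0 CPM in the *ChAT-BKO* libraries (median 9.72), a log2 fold change of 1.30 (SE 0.16, edgeR adjusted p = 0.000409). *Cry2* ran from 114 to 125 CPM in the controls (median 118) and from 144 to 151 CPM in the *ChAT-BKO* libraries (median 148), a log2 fold change of 0.32 (SE 0.046, edgeR adjusted p = 0.00179). The change of *Cry2* was small beside that of *Cry1*, yet its libraries were tightly grouped and also did not overlap. *Per1*, at 28.7 ± 2.75 CPM in control libraries against 26.7 ± 3.62 CPM in *ChAT-BKO* libraries, and *Per3*, at 6.97 ± 0.948 CPM in control libraries against 7.52 ± 0.894 CPM in *ChAT-BKO* libraries, were not called, with log2 fold changes of -0.096 (SE 0.091) and 0.076 (SE 0.12). Both cryptochrome genes but only 1 of the 3 period genes were thus called.

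In the loop of nuclear receptors, both REV-ERB genes were lower. *Nr1d2* ran from 41.7 to 43.8 CPM in the controls (median 42.9) and from 16.9 to 21.1 CPM in the *ChAT-BKO* libraries (median 20.1), a log2 fold change of -1.11 (SE 0.062, edgeR adjusted p = 4.95e-09), with control libraries that lay close together. *Nr1d1* ran from 44.6 to 57.6 CPM in the controls (median 46.3) and from 25.5 to 32.5 CPM in the *ChAT-BKO* libraries (median 29.8), a log2 fold change of -0.72 (SE 0.077, edgeR adjusted p = 4.92e-05). *Nr1d1* overlaps *Thra*, the thyroid hormone receptor α gene on the opposite strand, and whether the counting used strand was not given in the sources used here, so the reads of the pair may be mixed. *Thra* was at 373 ± 21.2 CPM in control libraries against 440.0 ± 17.9 CPM in *ChAT-BKO* libraries, opposite in sign to *Nr1d1*, with a log2 fold change of 0.24 (SE 0.05, edgeR adjusted p = 0.067). DESeq2 called *Thra* (adjusted p = 0.000777). The genes of the activators RORα and RORβ, *Rora* and *Rorb*, had log2 fold changes of 0.039 (SE 0.08) and -0.085 (SE 0.17) and were not called.

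*Ciart* encodes CHRONO, a further repressor of BMAL1-CLOCK, and ran from 9.20 to 15.0 CPM in the controls (median 11.7) and from 2.21 to 6.55 CPM in the *ChAT-BKO* libraries (median 4.98), a log2 fold change of -1.21 (SE 0.16, edgeR adjusted p = 0.000611). The DEC repressors *Bhlhe40* and *Bhlhe41* had log2 fold changes of -0.075 (SE 0.066) and -0.18 (SE 0.096) and were not called.

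Among the factors that bind D-boxes, the repressor *Nfil3* ran from 4.81 to 6.59 CPM in the controls (median 6.03) and from 9.81 to 13.4 CPM in the *ChAT-BKO* libraries (median 11.2), a log2 fold change of 0.95 (SE 0.11, edgeR adjusted p = 9.45e-05). The activator *Hlf* ran from 8.16 to 11.6 CPM in the controls (median 9.62) and from 12.8 to 15.4 CPM in the *ChAT-BKO* libraries (median 14.2), a log2 fold change of 0.52 (SE 0.093, edgeR adjusted p = 0.0211), and its call held in 5 of the 12 fits that left out 1 library. *Dbp*, whose transcript is a direct target of BMAL1-CLOCK in other tissues, was at 17.5 ± 3.10 CPM in control libraries against 13.4 ± 1.73 CPM in *ChAT-BKO* libraries, and its libraries overlapped, with a log2 fold change of -0.38 (SE 0.11, edgeR adjusted p = 0.58). *Tef* had a log2 fold change of 0.03 (SE 0.048). An activator and a repressor of the same element were thus both higher, and the other two activators were not called.

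Of 8 genes of kinases, ubiquitin ligases and a deubiquitinase that set the stability of clock proteins, 0 were called by edgeR, 0 by DESeq2 and 0 had an unadjusted p under 0.05, which 4.83% of all genes tested had. The casein kinase genes *Csnk1d*, *Csnk1e* and *Csnk2a1* had log2 fold changes of 0.012, 0.072 and 0.065, and *Gsk3b* had -0.032. The ligase genes *Fbxl21*, *Btrc* and *Fbxw11* had -0.14, 0.071 and 0.016, and *Usp2* had -0.093 (SE 0.14). The median of this list was 0.01 against 0.00 over all genes tested. The called clock genes were thus those of transcription factors and of repressors of the loop.

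Genes beyond the clock were also called. The largest fold upward among these, leaving aside the pseudogenes and *Gm48551*, was that of *Cdkn1a*, which encodes p21, an inhibitor of cyclin-dependent kinases known as a target of p53. Its level ran from 2.16 to 4.22 CPM in the controls (median 3.24) and from 11.3 to 15.4 CPM in the *ChAT-BKO* libraries (median 13.0), a log2 fold change of 2.10 (SE 0.14, edgeR adjusted p = 8.22e-08). It was the 1 called gene of 21 tested members of a list of CDK inhibitors and p53 targets, whose median was 0.03. The members with the next smallest p were *Cdkn1c*, at 0.45 (SE 0.24, edgeR adjusted p = 1), and *Sesn1*, at 0.13 (SE 0.071, edgeR adjusted p = 1). Inhibitors of the cell cycle other than p21 were thus not called.

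*Scd3*, a stearoyl-CoA desaturase that makes monounsaturated fatty acids, ran from 3.22 to 4.48 CPM in the controls (median 3.94) and from 7.36 to 9.40 CPM in the *ChAT-BKO* libraries (median 8.98), a log2 fold change of 1.20 (SE 0.12, edgeR adjusted p = 1.57e-05). It was the 1 called gene of 14 desaturases and elongases (median 0.03). *Elovl7*, a fatty acid elongase, was at 18.8 ± 1.33 CPM in control libraries against 23.7 ± 2.09 CPM in *ChAT-BKO* libraries, a log2 fold change of 0.33 (SE 0.076, edgeR adjusted p = 0.15). DESeq2 called *Elovl7* (adjusted p = 0.0450). Among 19 genes of cholesterol synthesis 0 were called by edgeR or DESeq2 and 0 had an unadjusted p under 0.05, with 9 above and 10 below zero. Of all genes tested, edgeR called 0.184% and 4.83% had an unadjusted p under 0.05. *Scd3* shares a genomic cluster and much of its sequence with other *Scd* genes, so its share of the reads depends on how RSEM divided them.

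Several called genes encode proteins of membranes and the cell surface. *Lamp5*, a brain-specific member of the lysosome-associated membrane proteins, ran from 124 to 154 CPM in the controls (median 133) and from 196 to 232 CPM in the *ChAT-BKO* libraries (median 204), a log2 fold change of 0.60 (SE 0.065, edgeR adjusted p = 5.27e-05). It was the 1 called gene of 11 lysosome membrane genes, and the log2 fold changes of the other 10 lay between -0.079 and 0.028. The tetraspanin *Tspan33* ran from 40.1 to 48.4 CPM in the controls (median 44.9) and from 58.6 to 68.2 CPM in the *ChAT-BKO* libraries (median 62.2), a log2 fold change of 0.48 (SE 0.06, edgeR adjusted p = 0.000358). The interleukin 4 receptor gene *Il4ra* was at 45.3 ± 4.61 CPM in control libraries against 60.1 ± 2.59 CPM in *ChAT-BKO* libraries, a log2 fold change of 0.40 (SE 0.067, edgeR adjusted p = 0.0119). *Lrrc32*, which encodes GARP, a protein that anchors latent TGF-β at the cell surface, was at 1.12 ± 0.611 CPM in control libraries against 3.10 ± 0.380 CPM in *ChAT-BKO* libraries, a log2 fold change of 1.31 (SE 0.26, edgeR adjusted p = 0.0432). The fucosyltransferase gene *Fut2* was at 3.68 ± 0.807 CPM in control libraries against 6.62 ± 0.651 CPM in *ChAT-BKO* libraries, a log2 fold change of 0.87 (SE 0.15, edgeR adjusted p = 0.0178). In the other direction, the surface glycoprotein gene *Cd24a* ran from 302 to 357 CPM in the controls (median 337) and from 261 to 289 CPM in the *ChAT-BKO* libraries (median 271), a log2 fold change of -0.30 (SE 0.05, edgeR adjusted p = 0.0138).

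Signalling and secretory genes were also called. *Plch2*, a phospholipase C, was at 17.5 ± 1.88 CPM in control libraries against 25.1 ± 1.60 CPM in *ChAT-BKO* libraries, a log2 fold change of 0.52 (SE 0.08, edgeR adjusted p = 0.00551). *Grb14*, an adaptor of the insulin receptor, was at 22.9 ± 2.06 CPM in control libraries against 30.4 ± 2.47 CPM in *ChAT-BKO* libraries, a log2 fold change of 0.42 (SE 0.076, edgeR adjusted p = 0.0239). *Stxbp6*, which encodes amisyn, a SNARE-binding protein, was at 28.1 ± 2.78 CPM in control libraries against 36.6 ± 2.06 CPM in *ChAT-BKO* libraries, a log2 fold change of 0.37 (SE 0.071, edgeR adjusted p = 0.0342), and was the 1 called gene of 24 synaptic vesicle and release genes (median 0.00). *Olfm1*, a secreted glycoprotein abundant in brain, was at 324 ± 13.8 CPM in control libraries against 390.3 ± 14.3 CPM in *ChAT-BKO* libraries, a log2 fold change of 0.27 (SE 0.047, edgeR adjusted p = 0.0178). These 4 genes were higher in *ChAT-BKO* neurons and their groups did not overlap.

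*Eif5a2*, the paralog of the translation factor gene *Eif5a*, and *Pdzd2*, a PDZ domain gene, had the largest adjusted p of the called genes, with log2 fold changes of 0.32 and 0.55 (SE 0.065 and 0.11, edgeR adjusted p = 0.0474 for each). *Arl6ip1*, which shapes the endoplasmic reticulum, was at 350.1 ± 18.6 CPM in control libraries against 435 ± 17.6 CPM in *ChAT-BKO* libraries, a log2 fold change of 0.31 (SE 0.05, edgeR adjusted p = 0.00706). *BC034090* and *Gm32432*, named by number, had log2 fold changes of 0.42 and 0.80 (SE 0.074 and 0.15, edgeR adjusted p = 0.0189 and 0.027). *Gm32432* overlaps *Dscam* on the opposite strand.

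Of the called genes that were lower, *Lxn*, which encodes latexin, a carboxypeptidase inhibitor, ran from 118 to 138 CPM in the controls (median 133) and from 98.2 to 111 CPM in the *ChAT-BKO* libraries (median 104), a log2 fold change of -0.34 (SE 0.055, edgeR adjusted p = 0.00939). *Lxn* overlaps *Gfm1* on the opposite strand. *C1ql2*, a secreted C1q-like protein of synapses, was at 23.3 ± 1.42 CPM in control libraries against 17.5 ± 1.34 CPM in *ChAT-BKO* libraries, a log2 fold change of -0.42 (SE 0.073, edgeR adjusted p = 0.0178). *Rspo3*, a secreted activator of Wnt signalling, was at 10.5 ± 0.521 CPM in control libraries against 7.40 ± 0.937 CPM in *ChAT-BKO* libraries, a log2 fold change of -0.52 (SE 0.10, edgeR adjusted p = 0.0432), and was called in 0 of the 12 fits that left out 1 library. *Abhd1*, which overlaps *Preb* on the opposite strand, was the 1 lower gene whose groups overlapped, at 2.26 ± 1.37 CPM in control libraries against 0.427 ± 0.157 CPM in *ChAT-BKO* libraries, a log2 fold change of -2.18 (SE 0.42, edgeR adjusted p = 0.0367).

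Extracellular matrix genes were mixed. *Col4a2*, a chain of basement membrane collagen IV, was at 13.6 ± 2.23 CPM in control libraries against 22.3 ± 3.82 CPM in *ChAT-BKO* libraries, a log2 fold change of 0.69 (SE 0.12, edgeR adjusted p = 0.0178). *Col4a1*, the chain it assembles with and its neighbour on the opposite strand, was at 2.91 ± 0.994 CPM in control libraries against 3.48 ± 0.704 CPM in *ChAT-BKO* libraries, a log2 fold change of 0.32 (SE 0.21, edgeR adjusted p = 1). *Colq*, the collagen-like tail that anchors acetylcholinesterase at the neuromuscular junction, was at 5.34 ± 0.877 CPM in control libraries against 8.51 ± 0.965 CPM in *ChAT-BKO* libraries, a log2 fold change of 0.69 (SE 0.12, edgeR adjusted p = 0.0189). They were the 2 called genes of 26 collagens and basement membrane genes, of which 10 were above and 16 below zero (median -0.04). *Ppib*, a prolyl isomerase that helps fold collagen in the endoplasmic reticulum, overlaps *Snx22* on the opposite strand. It was at 70.1 ± 4.19 CPM in control libraries against 87.0 ± 5.06 CPM in *ChAT-BKO* libraries, a log2 fold change of 0.31 (SE 0.058, edgeR adjusted p = 0.0291), and was the 1 called gene of 18 for collagen folding and crosslinking. In the same list, *Serpinh1*, the collagen chaperone HSP47, was at 1.04 ± 0.273 CPM in control libraries against 2.21 ± 0.362 CPM in *ChAT-BKO* libraries, with groups that did not overlap and a log2 fold change of 1.06 (SE 0.21, edgeR adjusted p = 0.0515). DESeq2 called *Serpinh1* (adjusted p = 0.0227). Among 20 endoplasmic reticulum chaperones and genes of the unfolded protein response 0 were called by edgeR or DESeq2, with 4 above and 16 below zero, and 1 of them had an unadjusted p under 0.05. The shares over all genes tested were 0.184% called by edgeR and 4.83% with an unadjusted p under 0.05.

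The calls differed in how far they held when 1 library was left out. In 18 of the 40 genes the call held whichever of the 12 libraries was left out, and these were the clock genes *Arntl*, *Cry1*, *Cry2*, *Per2*, *Nr1d1*, *Nr1d2*, *Ciart* and *Nfil3*, the genes *Cdkn1a*, *Scd3*, *Lamp5*, *Tspan33*, *Plch2*, *Arl6ip1* and *Lxn*, and 3 pseudogenes. *Cd24a*, *Il4ra* and *Col4a2* kept their call in 11 of the 12 fits, *Fut2* in 10, *Rps15a* in 9, and *Colq*, *C1ql2*, *Olfm1* and *BC034090* in 8. *Grb14*, *Gm32432* and *Ppib* kept it in 5, *Stxbp6*, *Abhd1* and *Gm48551* in 3, *Lrrc32*, *Pdzd2* and the pseudogene *Rps15a-ps6* in 2 and *Eif5a2* in 1. The 18 genes were those with the smallest adjusted p, up to that of *Lxn* (edgeR adjusted p = 0.00939). Every other call was lost in at least 1 of the 12 fits. Such a fit also has fewer libraries, so a lost call need not mean that the effect rested on the library left out. The log2 fold change of *Rspo3*, called in 0 of these fits, stayed between -0.55 and -0.46.

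The genes called at ZT8 were also tested at ZT20, in the dark phase, in 12 other mice, so that the time points share no library. Of the 40 genes, 25 were called at ZT20 as well, where 50 of 21738 genes were called (0.230%), and 39 had the same sign at both times. The exception was *Gm48551*, described below. For *Arntl* the log2 fold change at ZT20 was -2.08 (edgeR adjusted p = 1.98e-07), and the ZT20 effect minus the ZT8 effect was -0.43 (95% interval -0.90 to 0.045). For *Cry1* the ZT20 value was 2.15 (edgeR adjusted p = 1.42e-10) and the difference 0.076 (95% interval -0.21 to 0.36). *Cdkn1a* had 1.77 (edgeR adjusted p = 6.09e-07) at ZT20 and a difference of -0.31 (95% interval -0.77 to 0.14).

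In the pair of repressors *Per2* and *Nr1d2* the interval of the difference did not include 0. *Per2* was at 1.76 (edgeR adjusted p = 6.09e-07) at ZT20, a difference of 0.47 (95% interval 0.0073 to 0.94), and *Nr1d2* at -1.35 (edgeR adjusted p = 9.3e-09), a difference of -0.23 (95% interval -0.44 to -0.016), so that each estimate lay further from 0 at ZT20. *Rps13-ps1* and *Gm48551* were the other two of the 4 called genes with an unadjusted p under 0.05 for the difference. In the test of the difference over all 21738 genes, 848 had an unadjusted p under 0.05 (3.90%) and 0 an adjusted one, with a smallest edgeR adjusted p of 0.864, and DESeq2 and limma voom also called 0. A difference between the time points was therefore not called for any of these genes. *Nr1d1*, called at ZT8, had -0.50 (edgeR adjusted p = 0.14) at ZT20, and *Hlf* had 0.44 (edgeR adjusted p = 0.127). *Grb14*, *Lrrc32* and *Pdzd2* were called at ZT8 and had log2 fold changes of 0.22, 0.70 and 0.25 at ZT20, with edgeR adjusted p of 0.641, 0.312 and 0.754. The difference for *Grb14* was -0.19 (95% interval -0.41 to 0.041), for *Lrrc32* -0.60 (95% interval -1.28 to 0.069) and for *Pdzd2* -0.29 (95% interval -0.59 to 0.018), so that each interval included 0.

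**Figure D2:**
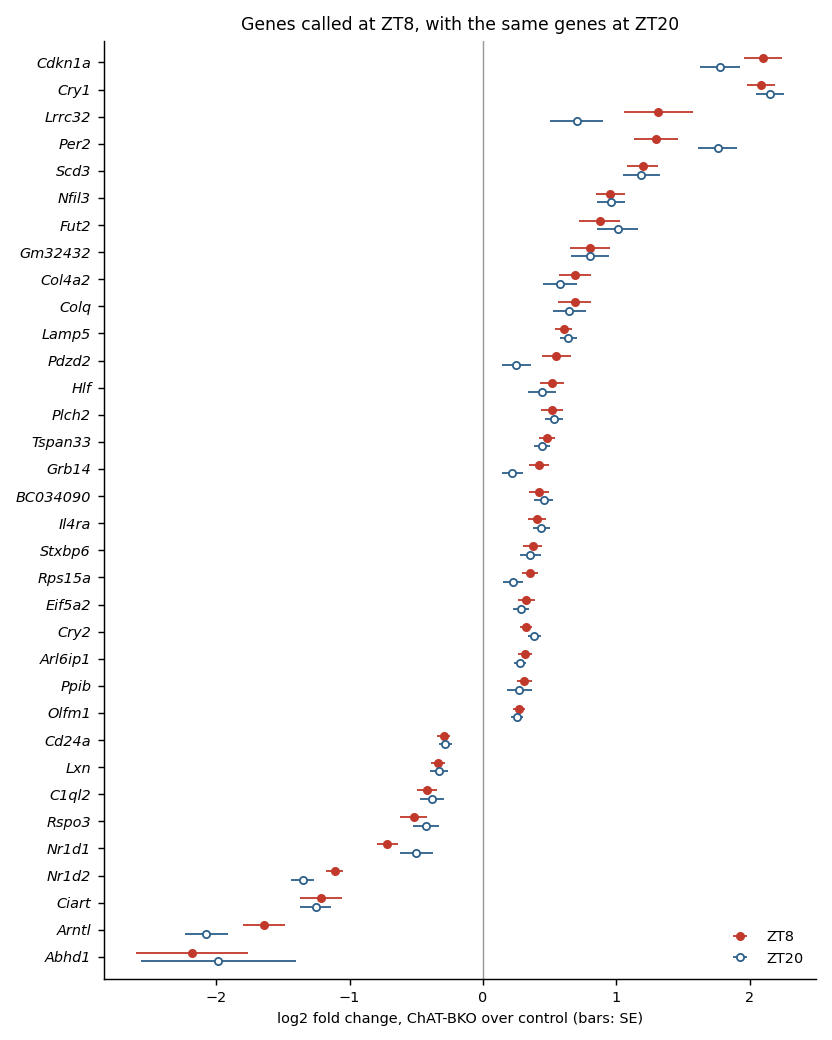
Log2 fold change of *ChAT-BKO* over control (horizontal axis, bars SE) at ZT8 (filled red) and ZT20 (open blue) for 34 of the 40 genes called at ZT8, the 6 left out including the 4 called pseudogenes and *Gm48551*. Each pair of points lies on the same side of zero, and the points of *Lrrc32*, *Per2* and *Arntl* lie furthest apart.

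Pseudogenes copied from ribosomal protein mRNAs formed a group of their own among the called genes. *Rps13-ps1* (chr8:87047689-87048226) ran from 13.2 to 21.9 CPM in the controls (median 18.9) and from 0 to 2.21 CPM in the *ChAT-BKO* libraries (median 0), and 4 of the 6 *ChAT-BKO* libraries were at 0. *Rps15a-ps7* (chr2:152185291-152185682) ran from 5.32 to 9.32 CPM in the controls (median 7.53) and from 0.283 to 0.817 CPM in the *ChAT-BKO* libraries (median 0.463), a log2 fold change of -3.83 (SE 0.24, edgeR adjusted p = 2.38e-08). *Rps13-ps2* (chr7:88530446-88530898) went the other way and ran from 0 to 0.769 CPM in the controls (median 0.297) and from 2.21 to 6.05 CPM in the *ChAT-BKO* libraries (median 5.10), a log2 fold change of 3.77 (SE 0.33, edgeR adjusted p = 3.21e-06). *Rps15a-ps6* (chr11:6172644-6173036), inside *Nudcd3*, was at 1.09 ± 0.519 CPM in control libraries against 0.270 ± 0.107 CPM in *ChAT-BKO* libraries, a log2 fold change of -2.02 (SE 0.40, edgeR adjusted p = 0.0432). Thus copies of one parent gene were called in opposite directions. At ZT20 *Rps13-ps1* was at 0 in all 6 *ChAT-BKO* libraries, and its edgeR adjusted p at ZT8 was 2.07e-06.

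The parent gene *Rps15a* was at 75.0 ± 6.55 CPM in control libraries against 95.5 ± 3.42 CPM in *ChAT-BKO* libraries and was called, with a log2 fold change of 0.35 (SE 0.061, edgeR adjusted p = 0.0176). *Rps13* was at 101 ± 18.1 CPM in control libraries against 114 ± 15.6 CPM in *ChAT-BKO* libraries and was not called, with a log2 fold change of 0.18 (SE 0.11, edgeR adjusted p = 1). Copies and parents share near-identical sequence, RSEM divides reads between them, and the single values are therefore uncertain. When the counts of *Rps13* were summed with those of 5 copies, the level was 119.6 CPM in controls against 119.9 CPM after deletion, a log2 fold change of 0.01 (SE 0.11, edgeR adjusted p = 1). The sum of *Rps15a* and 8 copies was 84.1 CPM in controls against 96.6 CPM after deletion, a log2 fold change of 0.20 (SE 0.065, edgeR adjusted p = 0.731), and the call of *Rps15a* was lost. Neither family was called once its copies were added up.

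**Figure D3:**
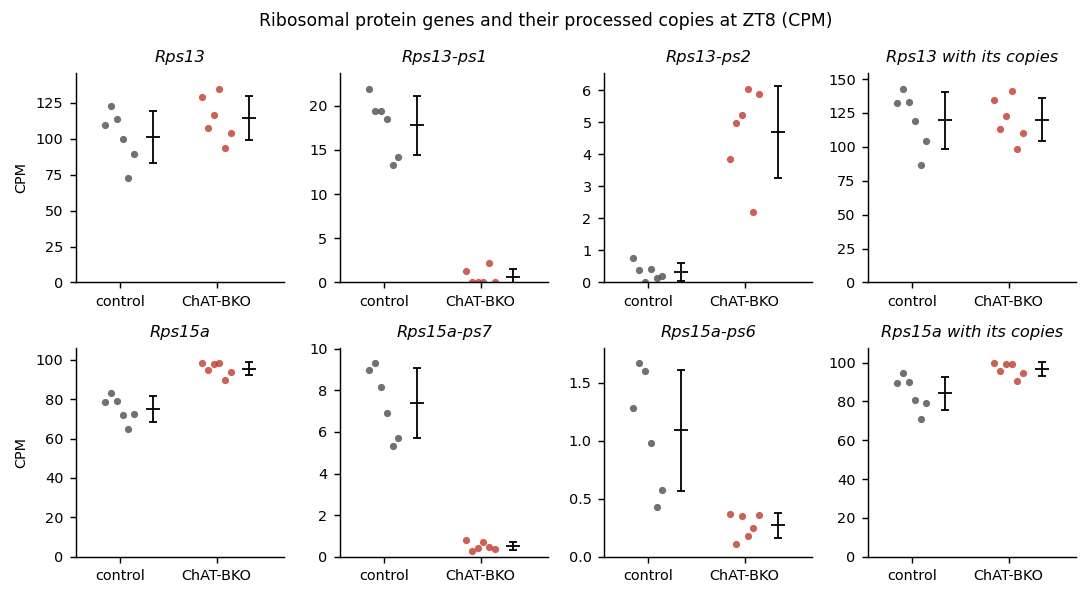
Normalized counts (CPM, vertical axis, from 0) of *Rps13*, *Rps15a*, 4 of their processed copies and the sum of each family in 6 control (grey) and 6 *ChAT-BKO* (red) libraries at ZT8, with the mean and SD beside the points. The groups are far apart for *Rps13-ps1*, *Rps13-ps2* and *Rps15a-ps7* and overlap for *Rps13* and its sum.

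Several called genes lay on the chromosome of *Bmal1*. The floxed alleles are carried by *ChAT-BKO* mice alone, so that sequence linked to them and the deletion itself cannot be told apart by the design. The study does not state whether these controls were littermates, so differences between litters, on any chromosome, cannot be told apart from the deletion either. Of 419 genes tested within 20 Mb of *Arntl*, 5 were called (1.19%), against 0.184% of all genes. These were *Arntl*, *Rps15a* and *Arl6ip1*, 4.85 and 4.86 Mb from it, *Il4ra*, 12.3 Mb from it, and *Lrrc32*, 14.8 Mb from it. *Serpinh1*, *Rps13* and the peptide gene *Calca*, which were not called, also lay within 20 Mb of *Arntl*. On the same chromosome, *Rps13-ps2* lay 24.7 Mb and *Fut2* 67.6 Mb from *Arntl*. The other 3 called pseudogenes lay on chromosomes 2, 8 and 11. The parent genes of the called pseudogenes, *Rps13* and *Rps15a*, lay 3.07 and 4.85 Mb from *Arntl*.

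*Gm48551* was at 0 in all 6 controls at ZT8 and between 0 and 0.91 CPM in *ChAT-BKO* libraries, with 47 counts in all (edgeR adjusted p = 0.0342). Against the level that 3 counts over the control group allow, 0.0439 CPM, it was at least 12.3-fold higher. Its ZT20 level was 0.701 ± 0.719 CPM in controls against 0.346 ± 0.537 CPM in *ChAT-BKO* libraries, so the sign was the opposite. It overlaps *Dohh* on the same strand, which was at 177 ± 33.6 CPM in control libraries against 171 ± 18.8 CPM in *ChAT-BKO* libraries.

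The cells sampled were checked by markers. The median ratio of the immunoprecipitates to the pooled input was 2.34 on the log2 scale over 7 cholinergic markers and ran from -4.38 for astrocyte markers to -1.90 for inhibitory neuron markers over 11 lists of other cell types. Of the genes of the 12 marker lists, 0 were called by edgeR or DESeq2, and 2 had an unadjusted p under 0.05. The shares over all genes tested were 0.184% called by edgeR and 4.83% with an unadjusted p under 0.05. *Chat* itself was at 89.4 ± 34.6 CPM in control libraries against 87.5 ± 17.8 CPM in *ChAT-BKO* libraries. Transcripts of other cell types were still present. In controls, oligodendrocyte markers summed to 1652 to 1922 CPM beside 4329 to 4766 CPM for cholinergic markers, and the inhibitory neuron marker *Gad1* was at 118 ± 8.83 CPM. Skeletal muscle markers, 15 genes of muscle fibers, summed to 8.09 to 25.0 CPM in 5 *ChAT-BKO* libraries and 202 CPM in *ChAT-BKO* replicate 4, and to 9.99 to 123 CPM in controls. The difference of their mean log2 CPM between the groups gave two-sided p = 0.569 in an exact permutation test, and all 14 library properties tested in this way had an adjusted p of 0.813 or more, where the smallest exact p possible is 0.00216. *Colq* is also expressed in muscle. It remained called with muscle markers as a covariate and without the most muscle-rich library of each group, 2 fits added after seeing the data. Its call was lost without control replicate 1 or 4 and without *ChAT-BKO* replicate 2 or 3. The part of muscle in its level was not tested.

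Genes that mark motor neurons and their receptors were without calls by edgeR, which called 0.184% of all genes tested. At that share, 0 calls among 13 genes says little about them. An unadjusted p under 0.05 was found for 4.83% of all genes tested. With each library's length slope (described below) in the fit, 2 motor neuron subtype genes and 2 serotonin receptors were called lower, a gene on both lists counting under each. Of 13 genes of motor neuron subtypes, 0 were called by edgeR or DESeq2 and 4 had an unadjusted p under 0.05 (3 above and 10 below zero, median -0.09). This median was -0.012 without control replicate 5 and -0.026 without *ChAT-BKO* replicate 4. The smallest p was that of *Htr1d*, a serotonin receptor, at -0.42 (edgeR adjusted p = 0.323). Of 13 serotonin receptors 0 were called by edgeR and 1 (*Htr3a*) by DESeq2, and 3 had an unadjusted p under 0.05. The groups of *Htr3a* did not overlap, at 10.5 ± 1.18 CPM in control libraries against 7.42 ± 1.20 CPM in *ChAT-BKO* libraries, a log2 fold change of -0.52 (SE 0.12, edgeR adjusted p = 0.15). Of 13 acetylcholine receptors 0 were called by edgeR or DESeq2 and 3 had an unadjusted p under 0.05, with *Chrna3* at 0.54 and *Chrnb4* at 0.75 (edgeR adjusted p = 0.58 and 0.631). These subunits form the receptor of autonomic ganglia.

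Fast transmission and excitability genes were also without calls by edgeR, which called 0.184% of all genes tested. At that share, 0 calls in lists of this size says little about their members. An unadjusted p under 0.05 was found for 4.83% of all genes tested. Among 16 glutamate receptors, 17 glycine and GABA-A receptors, 21 potassium channels and 31 sodium and calcium channels, 0 were called by edgeR or DESeq2, with medians from -0.05 to 0.02, and 2, 1, 1 and 2 of them had an unadjusted p under 0.05. *Grin2c* (edgeR adjusted p = 0.546), *Gabra3*, *Kcnd1* and *Cacna1e* had the smallest p of these lists, at 0.35, 0.18, -0.15 and 0.18. Among 15 axon injury genes 0 were called by edgeR or DESeq2, 3 had an unadjusted p under 0.05, and the median was -0.15, the lowest of these lists, with 5 above and 10 below zero. *Ecel1*, an endopeptidase induced by nerve injury, was at -0.18 (edgeR adjusted p = 0.792). Immediate early genes (15), glucocorticoid-responsive genes (13) and heat shock genes (14) had 0 calls by edgeR or DESeq2, medians of -0.01, 0.01 and -0.03, and 2, 0 and 2 genes with an unadjusted p under 0.05.

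Of 81 cytoplasmic ribosomal protein genes, 1 was called, and 72 were below and 9 above zero, against 49.9% below zero over all genes tested. Of all genes tested, edgeR called 0.184% and 4.83% had an unadjusted p under 0.05. Their median was -0.05, and with each library's length slope in the fit it was -0.02. Respiratory chain genes (81) and proteasome genes (39) had 0 calls by edgeR or DESeq2, medians of -0.0047 and -0.02, and 5 and 0 genes with an unadjusted p under 0.05. Of 18 tubulin and neurofilament genes 0 were called by edgeR or DESeq2 and 2 had an unadjusted p under 0.05, with 16 below zero and a median of -0.04.

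**Figure D4:**
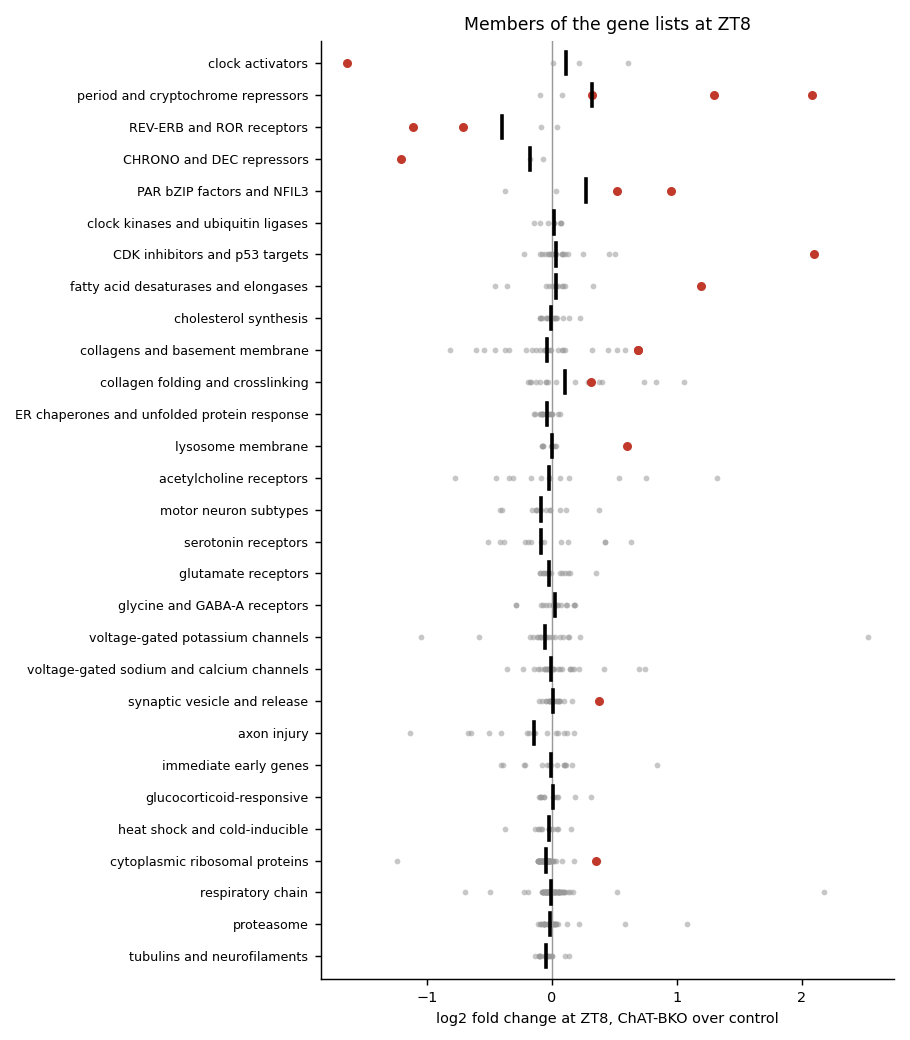
Log2 fold change of *ChAT-BKO* over control at ZT8 (horizontal axis) for each tested member of 29 gene lists (rows). Large red points are genes called by edgeR, small grey points are the other members, and the black bar is the median of the list, which lies between -0.40 and 0.32.

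Libraries differed in how their counts relate to transcript length. The slope of a library's log2 CPM against the log2 length of the transcript, over 13211 genes, ran from 0.079 to 0.316 in controls and from 0.110 to 0.242 in *ChAT-BKO* libraries, and the means, 0.165 ± 0.090 and 0.174 ± 0.060 (SD, n = 6), gave two-sided p = 0.866 in an exact permutation test. Control replicate 5 had the steepest slope and also the highest level of *Chat*, 143 CPM against 51.8 to 113 CPM in the other controls. From the shortest transcripts (102 to 1942 bases) to the longest (over 5363 bases), in 5 classes of equal size, the median log2 fold change between genotypes went from -0.017 to 0.0062, and the called genes had a median length of 2955 bases against 2977 for the genes tested. Steep and shallow slopes were thus found in both groups.

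With the slope as a covariate, 164 genes were called (0.754%), 112 higher and 52 lower, and all 40 genes called without it were among them. For the 124 that were added, the log2 fold change moved by a median of 0.0096 and the SE fell to a median of 0.718 times its value, and 32 of them had groups that did not overlap. These 124 were picked by the fit with the slope. Over all genes tested the median SE was 0.176 without the slope and 0.160 with it. DESeq2 called 70 genes (0.322%), which also included all 40, and the 30 it added were all called with the slope covariate. *Rgs4*, a regulator of G protein signalling chosen after its values were seen, was the added gene with the smallest adjusted p, at 240.2 ± 20.3 CPM in control libraries against 298 ± 30.9 CPM in *ChAT-BKO* libraries, and its edgeR adjusted p went from 0.124 to 1.93e-07. *Thra* went from 0.067 to 1.36e-05 and *Dbp* from 0.58 to 0.0398, while the log2 fold change of *Dbp* was -0.38 without and -0.35 with the slope. Which of these genes are called therefore depends on whether the slope is in the fit.

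**Figure D5:**
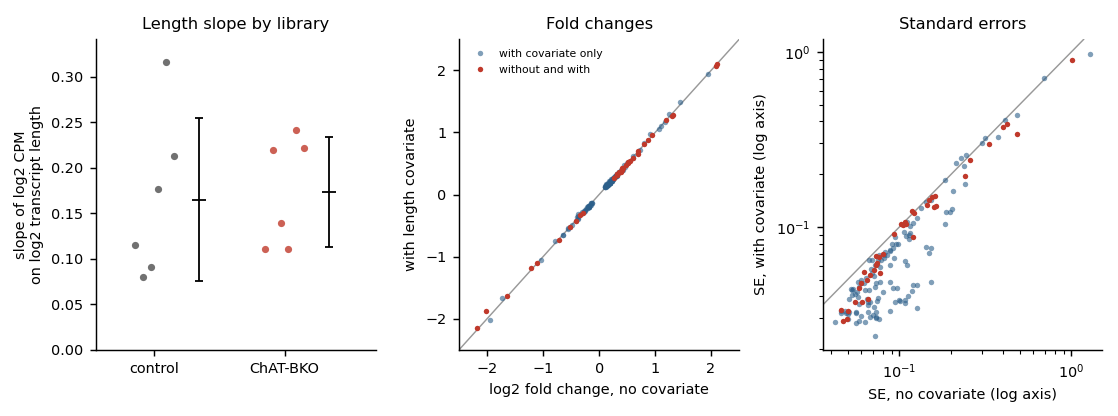
Left, slope of log2 CPM against log2 length in each library at ZT8, with mean and SD. Middle and right, log2 fold changes and SEs (log axes) without and with the slope as a covariate for the 40 genes called in both fits (red) and the 124 called with it and not without it (blue), the middle panel leaving out 6 genes outside its axes; fold changes lie on the line of equality and most SEs lie below it.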

How the data were processed

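Expression was measured by RNA-seq of HA immunoprecipitates from 12 mice at ZT8, with 12 more at ZT20 for the comparison of effects. The values deposited by the authors are expected counts per gene from RSEM after alignment with STAR 2.7.5 to mm10, without normalization or filtering; the authors then tested them with DESeq2 1.32.0. As 6.11% of the values were fractional, they were rounded before testing. Groups were taken from the labels, and replicates are separate mice.

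Genes with at least 10 counts summed over 24 immunoprecipitates were tested with edgeR 4.0.16 in R 4.3.3 (TMM, quasi-likelihood F test without a block, two-sided, Benjamini-Hochberg over 21738 genes, called at adjusted p under 0.05). The SE was derived from the F statistic, and log2 CPM had a prior count of 2. The interval of the difference of effects is the 95% interval of the model over all 24 libraries. Library properties were compared by exact permutation tests in scipy 1.17.1. Positions came from GENCODE on GRCm38, the build of the files, with a position for 87.1% of the genes tested, and promoter windows from RefSeq. The fit was tested on simulated data. Every called gene and every clock list member is named, apart from genes that are not reported here, and otherwise up to 3 members of a list by smallest p. Members and lists were chosen with earlier results of these data known, and *Rgs4* was chosen after its values were seen. Alternatives were DESeq2 1.42.0, its size factors, no filter, filterByExpr, limma 3.58.1 voom, all 24 libraries, a replicate block, the length slope as a covariate, copies summed with parents and each library left out; the 2 on muscle markers were added after seeing the data. Strand use in counting was not given in the sources used here.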

Additional observations from a re-analysis of the deposited data

Results flagged for a closer look

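In a group of 6 libraries, a value is given here when its gap to the nearest other library took up more than 0.625 of the range of the group (Dixon's test). This was so in 8 of 146 sets of values, and chance alone gives about 5% of sets. Control replicate 5, which had the steepest length slope, was highest for *Nr1d1* at 57.6 CPM (others 44.6 to 49.2), lowest for *Lxn* at 118 CPM (others 131.5 to 138.4) and highest for *Clock* at 22.0 CPM (others 14.3 to 16.6). Control replicate 1 was lowest for *Rorb* at 1.67 CPM (others 2.48 to 2.73) and lowest for mural cell markers at a mean log2 CPM of -0.079 (others 0.27 to 0.47). *ChAT-BKO* replicate 5, the shallowest library, was lowest for *Bhlhe41* at 47.6 CPM (others 60.5 to 66.2). *ChAT-BKO* replicate 2 was highest for astrocyte markers at a mean log2 CPM of 4.22 (others 3.70 to 3.87), and *ChAT-BKO* replicate 4 was highest for skeletal muscle markers at 3.04 (others -1.18 to -0.061). The calls of *Nr1d1* and *Lxn* held without control replicate 5, and the part of the slope, depth and markers in these values was not tested.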

How the results depend on the processing

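At ZT8 edgeR called 28 genes higher and 12 lower, and with each library left out in turn it called from 12 to 31 higher and from 7 to 12 lower. The counts moved by over 1.5 times without control replicate 1 (18 higher), control replicate 4 (16 higher), *ChAT-BKO* replicate 1 (15 higher) and *ChAT-BKO* replicate 3 (12 higher and 7 lower). DESeq2 called 49 higher and 21 lower, and the length slope as a covariate gave 112 and 52. With a replicate block the counts were 47 and 22, and with the block and the slope together 263 and 166. Whether the replicate numbers pair the libraries is not given by the labels, and the values here do not settle it. Same-numbered libraries correlated between -0.157 and 0.263 in their deviations from the group means, and 2 of 6 correlated best with their own number. Replicate 5 was the shallowest in both groups (6.78 M counts in controls, 4.04 M in *ChAT-BKO*). The deepest were control replicate 4 and *ChAT-BKO* replicate 2. The other alternatives kept both counts within 1.5 times, at 22 and 9 with muscle markers as a covariate and 19 and 9 without the most muscle-rich library of each group. In 18 of the 40 called genes the call held in every alternative that gave the gene a value of its own, which the 3 pseudogenes among them did not have once copies were summed with parents. Those lost outside the fits that left out a library were *Eif5a2* and *Pdzd2* with DESeq2's size factors, *Eif5a2* with filterByExpr, *Abhd1*, *Rps15a-ps6* and *Pdzd2* with voom, *Ppib*, *Gm48551* and *Abhd1* with all 24 libraries, and *Rps15a* when summed with its copies, along with 9 genes under the muscle covariate and 15 without the muscle-rich libraries, and the cause was not tested. For the difference between ZT8 and ZT20, 1 gene was called with the slope covariate and 0 in the other 6 fits made for it, in which from 565 to 1238 genes had an unadjusted p under 0.05. The shift of the median of all genes with DESeq2's scaling was -0.004.

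*Arntl* stayed between -1.76 and -1.56 in all alternatives. Signs turned in genes that were not called and lay close to zero or were barely detected. *Arntl2* was at -0.00058 with DESeq2's size factors, -0.00086 without a filter, -0.00027 with filterByExpr, -0.0038 with voom, -0.00022 with all 24 libraries, -0.0062 with the replicate block, -0.012 with the slope, -0.054 with both and -0.056 with muscle markers. *Aif1* was at -0.057 with voom, and *Tcap* at -0.11 with voom and -0.54 with the replicate block. Without the muscle-rich libraries *Slc17a7* was at -0.0081, *Myh2* at -1.20, *Tcap* at -1.90 and the median of the muscle markers at -1.83. With 1 library left out, log2 fold changes ran from -0.061 to 0.12 for *Arntl2*, -0.0012 to 0.083 for *Rora*, -0.0036 to 0.027 for *Csnk1d*, -0.066 to 0.015 for *Gsk3b*, -0.011 to 0.079 for *Slc17a6*, -0.054 to 0.41 for *Slc17a7*, -0.086 to 0.0014 for *Aldh1l1*, -0.31 to 0.79 for *P2ry12*, -0.16 to 0.47 for *Avil*, -2.07 to 2.64 for *Myh2* and -2.62 to 1.68 for *Tcap*. The muscle values rest on *ChAT-BKO* replicate 4, without which the median of the muscle markers was -2.16 against -0.093 with it.

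Depth limited transcripts under about 1 CPM, since a count of 0 allowed up to 0.743 CPM in the shallowest library. Genes that share reads with copies or with a gene on the opposite strand are uncertain, and the sequence linked to the floxed alleles cannot be told apart from the deletion.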

Other observations

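With each library's length slope as a covariate, edgeR also called list members that it did not call without it. *Elovl7*, an elongase of long fatty acids, was at 18.8 ± 1.33 CPM in control libraries against 23.7 ± 2.09 CPM in *ChAT-BKO* libraries at ZT8 (SD, n = 6), with groups that did not overlap, and its edgeR adjusted p was 0.0155 with the slope. It was also called at ZT20, where its log2 fold change was 0.41 (edgeR adjusted p = 0.00469). *Loxl4*, a lysyl oxidase that crosslinks collagen, had log2 fold changes of 0.74 at ZT8 and 1.07 at ZT20. At ZT8 its groups overlapped, and its edgeR adjusted p was 0.352 without the slope and 0.000925 with it. At ZT20 its edgeR adjusted p was 5.7e-05 without the slope. Both genes thus had log2 fold changes above zero at both times, and at ZT8 neither was called by edgeR without the slope.

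Among neuronal genes, *Calca*, which encodes the peptide CGRP of motor neurons, was at 398 ± 80.4 CPM in control libraries against 301.5 ± 82.1 CPM in *ChAT-BKO* libraries, and its log2 fold change of -0.40 was not called (edgeR adjusted p = 0.882). It was -0.37 with the slope and -0.42 with the replicate block, and both were called (edgeR adjusted p = 0.00394 and 0.00641). *Calca* lies on chromosome 7 within 20 Mb of *Arntl*, so that sequence linked to the floxed alleles and the deletion cannot be told apart for it. The serotonin receptor genes *Htr1d* and *Htr3a* were at -0.43 and -0.53 with the slope (edgeR adjusted p = 0.0492 and 0.00643). *Ecel1* was at -0.20 and the potassium channel gene *Kcnc4* at -0.21 (edgeR adjusted p = 0.0058 and 0.0209). At ZT20, without the slope, these 5 genes were not called, and *Kcnc4* was above zero at 0.013. The groups overlapped for *Calca*, *Htr1d*, *Ecel1* and *Kcnc4* and did not overlap for *Htr3a*. These genes were chosen after their values were seen.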
